A study of Mus musculus with 6 samples.

Results

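Genes that supply thymidylate and deoxynucleotides for DNA synthesis were described in proximal colon: Tyms, Tk1, Dut, Rrm1, Rrm2, Dctd, Cad, Umps and Uck2. The 9 genes were chosen by name, and every probe set whose platform symbol was one of them was taken from the deposited array values. That gave 20 probe sets out of 22626, after 64 control probe sets were left out. Dctd, dCMP deaminase, is named by no probe set of the platform annotation and has no value here. A probe set was tested where its mean passed the 40th percentile of all probe sets, which 14 of the 20 did.

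The study hybridised colon RNA of 3 wild-type animals and of 3 same-aged carriers of 1 trapped Mthfd1 allele (genotype Mthfd1/+ in the labels; the trap came from BayGenomics). All 6 animals were 8 weeks old and had been weaned at 3 weeks onto the control diet AIN-93G, which they ate for 5 weeks. Each array is labelled as a separate biological replicate of the flushed proximal colon, so it holds epithelium together with muscle and other layers of the wall. The sources used here do not give strain, sex or the place of the trap within Mthfd1. MTHFD1 is a cytosolic enzyme that interconverts folate-bound one-carbon units, and the comparison asks how the colon differs when 1 allele is trapped.

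Cells make dTMP in 2 ways. Thymidylate synthase (Tyms) methylates dUMP with a folate one-carbon unit, and thymidine kinase 1 (Tk1) phosphorylates salvaged thymidine. dUMP comes from dUTP through dUTPase (Dut), which also keeps uracil out of DNA, and from dCMP through Dctd. Ribonucleotide reductase, built from the large subunit Rrm1 and the small subunit Rrm2, turns ribonucleotides into deoxyribonucleotides. Cad and Umps carry out steps of UMP synthesis, and Uck2 salvages uridine and cytidine. In the gut, genes of deoxynucleotide supply are known for high expression in the dividing cells of the crypt. In bulk tissue such as this, fewer dividing cells and less RNA per cell cannot be told apart.

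Several supply genes are known targets of factors active at the start of S phase, and the promoters of the members and of Mki67, a marker of dividing cells, were searched for 4 short motifs. Windows from RefSeq on GRCm38.p6 held 250 bases before and 50 after an annotated start, and matched 8 of 8 members that have a probe set. On either strand, CCAAT was found in 3 of 8 member windows (37.4% of 32851 windows of that length), GGGCGG in 7 (35.7%), CACGTG in 1 (7.15%), and an E2F-type word in 3 (9.57%). The words taken as E2F-type were TTCCCGC, then with other middle letters TTGGCGC, next to these TTGCCGC, and as the last of them TTCGCGC. The E2F-type word stood in the windows of Rrm1, Rrm2 and Cad, and in that of Mki67. Stretches of 150 bases before the outermost annotated start are shown for both reductase subunits, for Tyms and for Mki67, 5′ to 3′ on the strand of the gene, with matches in capitals. They lie at chr7:102441545-102441694 (+ strand), chr12:24708104-24708253 (+), chr5:30073646-30073795 (- strand) and chr7:135716451-135716600 (-).
Rrm1: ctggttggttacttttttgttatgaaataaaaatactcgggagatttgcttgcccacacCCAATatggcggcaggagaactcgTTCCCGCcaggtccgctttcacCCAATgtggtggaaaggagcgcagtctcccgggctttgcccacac
Rrm2: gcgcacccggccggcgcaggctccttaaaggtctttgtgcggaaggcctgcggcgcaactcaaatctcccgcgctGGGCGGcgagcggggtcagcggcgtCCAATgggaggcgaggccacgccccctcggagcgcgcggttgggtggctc
Tyms: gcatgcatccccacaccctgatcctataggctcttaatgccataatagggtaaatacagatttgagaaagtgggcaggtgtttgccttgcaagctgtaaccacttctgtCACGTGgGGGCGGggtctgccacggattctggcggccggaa
Mki67: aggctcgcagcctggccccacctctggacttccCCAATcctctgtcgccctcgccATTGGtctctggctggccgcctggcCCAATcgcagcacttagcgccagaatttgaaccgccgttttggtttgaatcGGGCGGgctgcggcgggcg
Rrm1 holds CCAAT at 2 places around TTCCCGC, Rrm2 holds GGGCGG and CCAAT, Tyms holds CACGTG next to GGGCGG, and Mki67 holds CCAAT on both strands and GGGCGG. The E2F-type words of Rrm2 and Mki67 lie in their windows outside the stretches shown. A match is a description of letters in a window and not of binding.

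The arrays differed in ways that the genotype did not set. Intensities are linear values scaled to a common trimmed mean of 500, and the median over probe sets ran from 156.85 to 168.25. At its brightest probe set Mthfd1 itself had a wild-type mean of 890 ± 56.1 and a heterozygous mean of 504 ± 48.4 (SD, n = 3 each), with no overlap. A second tested probe set had 421 ± 19.7 and 206 ± 34.5 (SD, n = 3 each), also with no overlap. Markers were read for the labelled tissue: all 16 colonocyte genes passed the filter, and Car1, carbonic anhydrase 1, read from 15442.6 to 19083.6. Passing the filter does not by itself tell colon from ileum, since 8 of 14 ileal genes passed it too. Genes typical of the ileum varied widely within both genotypes. Fabp6, an ileal bile acid binding protein, was highest in wild-type replicate 2 (5661.9) and heterozygous replicate 2 (5621.6), and lowest in wild-type replicate 3 (93.5). The part of this variation in the results below was not tested. The fold changes of the tested member probe sets, and the r of each of the 7 genes with Mki67, were repeated without each array in turn.

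None of the 14 tested probe sets passed the threshold, a limma adjusted p under 0.05 over all probe sets. Their adjusted p ran from 0.816 to 0.999. Over the whole array 0% of 13576 tested probe sets passed, and the smallest adjusted p was 0.0540. The trapped gene Mthfd1 did not pass either, with a limma adjusted p of 0.121 at its brightest and 0.108 at its second probe set. At an unadjusted p under 0.05 there were 2 of the 14 member probe sets, against 5.69% of all tested: 1 of Dut, higher in heterozygous colon (3.12% of all tested), and 1 of Uck2, lower (2.56%). These were also the 2 whose groups did not overlap, against 10.4% of all tested, 5.26% with heterozygous higher and 5.1% with heterozygous lower. Positive log2 fold changes were found at 11 of the 14, where 50.7% of all tested probe sets were positive. Among the 11, the second probe sets of Rrm1 (0.002), Cad (0.010) and Uck2 (0.007) were near 0. Their heterozygous means on the linear scale were slightly below wild-type: 209.1 against 209.6, 147 against 151.2, and 203.6 against 203.8. Several of the 14 belong to 1 gene, so they are not independent.

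The widest variation was seen in Rrm2, the small subunit of ribonucleotide reductase whose level is known to follow S phase. Its brightest probe set read 943.8, 547.5 and 241.1 in wild-type replicates 1 to 3 and 517.7, 995.7 and 923.1 in heterozygous replicates 1 to 3. Wild-type replicate 1 was as high as the upper pair of heterozygous arrays, wild-type replicate 3 was the lowest of all, and the groups overlapped. The means were 577 ± 352 (SD, n = 3) and 812 ± 258 (SD, n = 3), a log2 fold change of 0.62 (SE 0.43, 95% interval -0.34 to 1.58, limma adjusted p = 0.916). Leaving out wild-type replicate 1 gave 1.07 and leaving out wild-type replicate 3 gave 0.12, so it depended on which wild-type array was counted. Within genotypes the SD of its log2 values was 0.76, against a median of 0.18 over tested probe sets, and 99.3% of tested probe sets varied no more.

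The other tested probe sets of Rrm2 had the same low array. One read 368.5, 226 and 133 in wild-type and 240.2, 410.2 and 317.6 in heterozygous replicates 1 to 3. The other read 428.9, 228.1 and 112.7 in wild-type and 228.7, 268.2 and 326.1 in heterozygous replicates. Wild-type replicate 3 stood at 34.7%, 47.1% and 42.5% of the 6-array mean of the respective probe sets. The log2 fold changes were 0.46 (SE 0.32) and 0.26 (SE 0.37), and both groups overlapped. The last of them was -0.20 without wild-type replicate 3.

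Rrm1, the large subunit that holds the catalytic site, varied less. Its brightest probe set read 371.8, 309.8 and 296.4 in wild-type replicates 1 to 3 and 390.2, 352.5 and 441.4 in heterozygous replicates 1 to 3. Only wild-type replicate 1 reached into the heterozygous range, above heterozygous replicate 2. The means were 326 ± 40.2 (SD, n = 3) and 395 ± 44.6 (SD, n = 3), a log2 fold change of 0.26 (SE 0.14, 95% interval -0.06 to 0.59, limma adjusted p = 0.910). A second tested probe set read 252.8, 192.4 and 183.5 in wild-type and 188.5, 196.6 and 242.3 in heterozygous replicates. Its log2 fold change was 0.00 (SE 0.17, 95% interval -0.38 to 0.39), and so the direction for Rrm1 rests on 1 probe set. In both probe sets, as in all 3 of Rrm2, wild-type replicate 3 was the lowest array.

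Tk1, the S-phase salvage kinase for thymidine, had 1 probe set. It read 570.7, 274.5 and 264.2 in wild-type replicates 1 to 3 and 410.1, 386.2 and 438.4 in heterozygous replicates 1 to 3. The heterozygous arrays lay close together, with wild-type replicate 1 above them and wild-type replicates 2 and 3 below. The means were 370 ± 174 (SD, n = 3) and 412 ± 26.1 (SD, n = 3), a log2 fold change of 0.24 (SE 0.26, 95% interval -0.35 to 0.82, limma adjusted p = 0.947). Leaving out wild-type replicate 1 gave 0.58, and leaving out replicate 2 or 3 of that genotype gave 0.07 or 0.05.

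Tyms, the enzyme that uses the one-carbon unit, could be measured only together with a pseudogene. The bright probe set carries the symbols of Tyms and of Tyms-ps, and their signals cannot be told apart. It read 566.5, 449.2 and 441.6 in wild-type replicates 1 to 3 and 501.9, 610.2 and 558.6 in heterozygous replicates 1 to 3. Wild-type replicate 1 lay inside the heterozygous range and the other wild-type arrays below it. The log2 fold change was 0.20 (SE 0.14, 95% interval -0.13 to 0.52, limma adjusted p = 0.923). The 3 probe sets with the symbol Tyms alone fell below the filter, at the 19.2th, 7.9th and 3.6th percentile of mean signal. The brightest of them read 25.5 ± 8.57 and 25.9 ± 11.8 (SD, n = 3 each). The dimmest did not overlap, at 3.9 to 17 in wild-type and 1.9 to 2.1 in heterozygous arrays, levels that carry no call here since the values come without a detection measure.

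Dut, dUTPase, had no overlap between genotypes, with heterozygous arrays higher, and did not pass the threshold. Its tested probe set read 340.8, 290.9 and 233.9 in wild-type replicates 1 to 3 and 357.3, 426.4 and 354.4 in heterozygous replicates 1 to 3. The gap between the groups, from 340.8 to 354.4, was smaller than the spread within either. The means were 289 ± 53.5 (SD, n = 3) and 379 ± 40.8 (SD, n = 3), a log2 fold change of 0.39 (SE 0.16, 95% interval 0.02 to 0.75), with a limma unadjusted p of 0.0398 and adjusted p of 0.853. The exact two-sided permutation p was 0.1, the smallest that 3 against 3 arrays can give. A dimmer probe set below the filter read 42.5 ± 27.7 and 57.6 ± 23.8 (SD, n = 3 each) and overlapped. The difference was 0.25 without wild-type replicate 3, the lowest array for Dut as well.

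**Figure D1:**
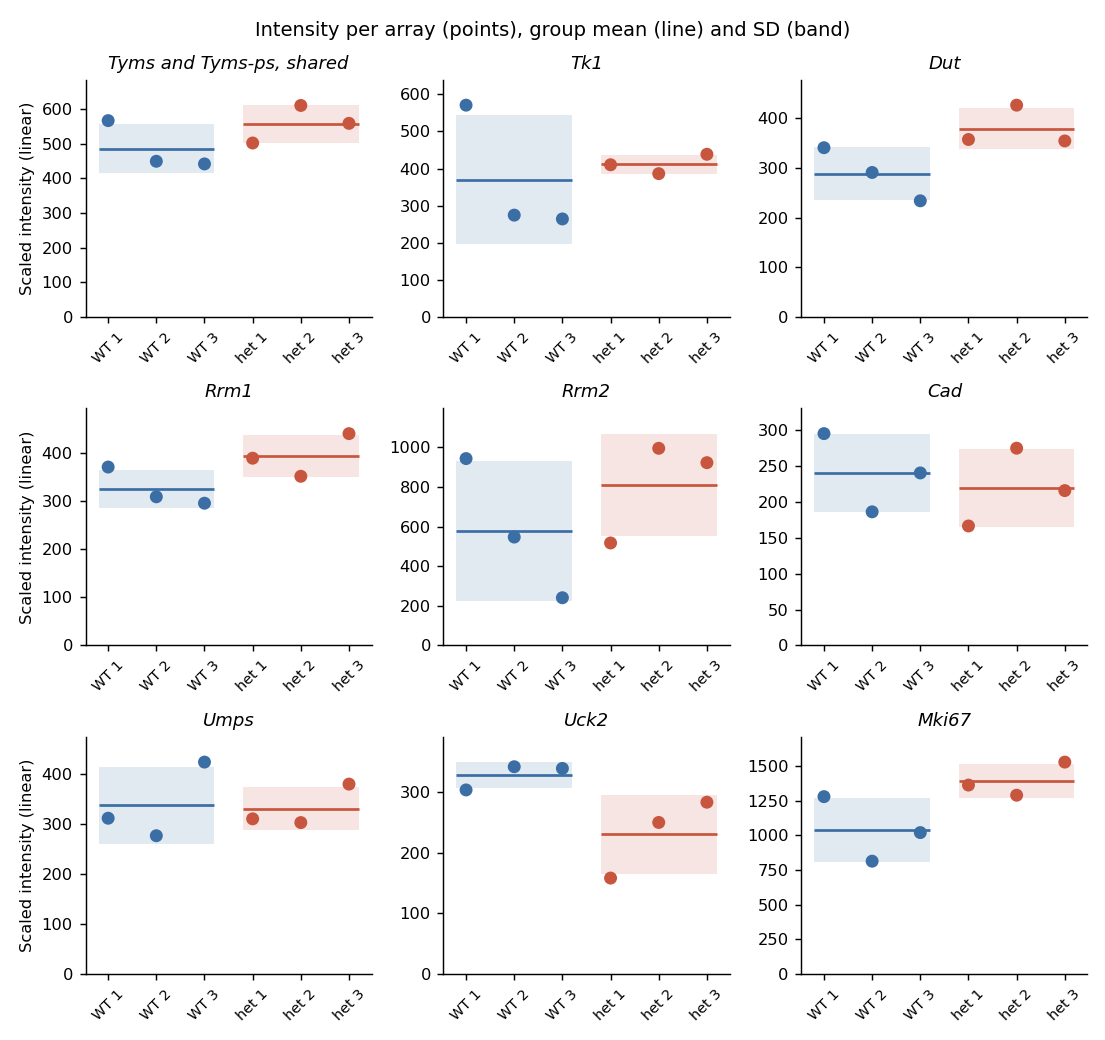
Scaled intensity (linear, from 0) of 1 probe set per gene in the 3 wild-type (WT) and 3 heterozygous (het) arrays, with Mki67 for reference; points are arrays, lines group means and bands 1 SD (n = 3). Dut and Mki67 are higher and Uck2 lower in every heterozygous array, and the other genes overlap, with wild-type replicate 1 high for Tk1 (570.7) and Rrm2 (943.8). Levels should not be compared between panels, since probe sets differ in response.

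Of the genes of UMP synthesis, Cad, the multifunctional enzyme of its opening steps, showed no clear direction. Its brightest probe set read 295.3, 186.3 and 240.5 in wild-type replicates 1 to 3 and 166.6, 275 and 215.9 in heterozygous replicates 1 to 3. Heterozygous replicate 1 and wild-type replicate 2 were the lowest arrays, and the groups overlapped over nearly their whole range. The log2 fold change was -0.13 (SE 0.21, 95% interval -0.61 to 0.35, limma adjusted p = 0.972). The second probe set gave 0.01 (SE 0.24), with 160, 95 and 198.6 in wild-type and 130.5, 165.1 and 145.4 in heterozygous replicates. The brightest turned to 0.02 without wild-type replicate 1 and to 0.04 without heterozygous replicate 1.

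Umps, which carries out the last steps to UMP, read 311.3, 276.3 and 423.5 in wild-type replicates 1 to 3 and 310.1, 302.6 and 379.5 in heterozygous replicates 1 to 3 at its brightest probe set. Replicate 3 was the highest of each genotype, and the groups overlapped. The log2 fold change was -0.01 (SE 0.18, 95% interval -0.41 to 0.39, limma adjusted p = 0.999). The second probe set read 199.4, 240.2 and 259.3 in wild-type and 257, 310.5 and 271.3 in heterozygous replicates, a log2 fold change of 0.25 (SE 0.15, limma adjusted p = 0.915). There only wild-type replicate 3 exceeded a heterozygous array. Another, below the filter, read 16.8 ± 5.53 and 23.8 ± 7.06 (SD, n = 3 each).

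Uck2, uridine-cytidine kinase 2, had the smallest unadjusted p of the group and the least agreement between probe sets. The brightest read 303.8, 342.1 and 339.3 in wild-type replicates 1 to 3 and 158.3, 250.1 and 283.5 in heterozygous replicates 1 to 3. Every heterozygous array was below every wild-type array, with heterozygous replicate 1 the lowest. The means were 328 ± 21.4 (SD, n = 3) and 231 ± 64.8 (SD, n = 3), a log2 fold change of -0.52 (SE 0.20, 95% interval -0.97 to -0.07), with a limma unadjusted p of 0.0290 and adjusted p of 0.816. It was -0.28 without heterozygous replicate 1. The second tested probe set read 223.2, 143.3 and 244.9 in wild-type and 242.6, 151.1 and 217.2 in heterozygous replicates. Its log2 fold change was 0.01 (SE 0.23), and heterozygous replicate 1, the lowest array of the first probe set, was there the highest of its genotype. Another read from 2.3 to 10.9 in all 6 arrays, below the filter.

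**Figure D2:**
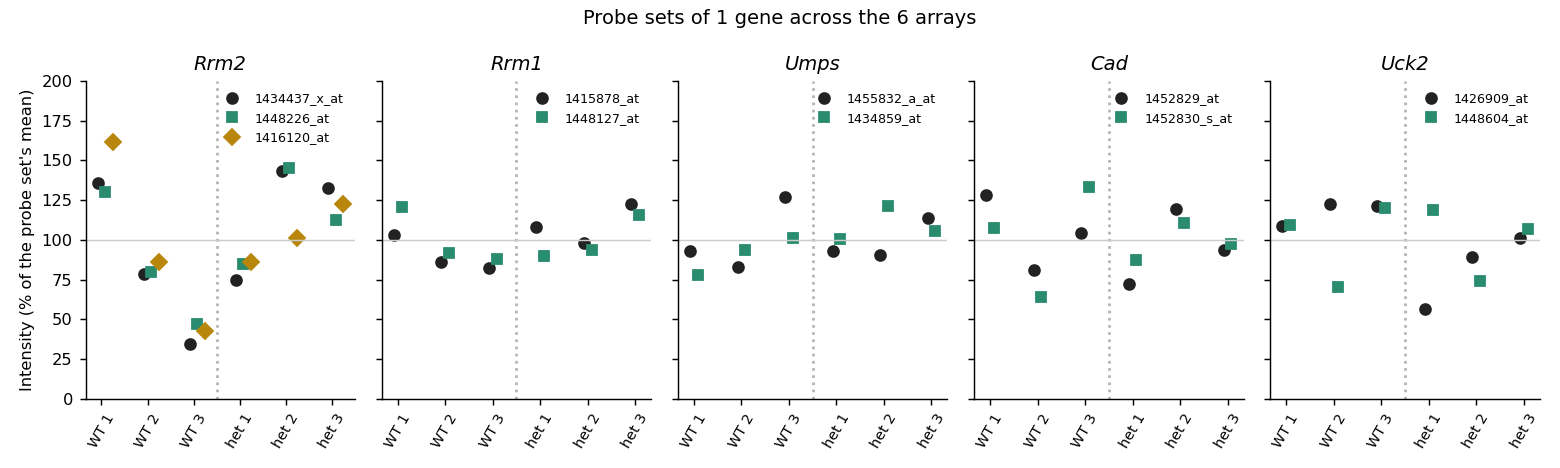
Intensity of each tested probe set as a percentage of its own mean over the 6 arrays, for the 5 genes with more than 1 tested probe set; each symbol is a probe set and the dotted line parts wild-type (WT) from heterozygous (het) arrays. The 3 probe sets of Rrm2 share the low wild-type replicate 3 (34.7%, 47.1% and 42.5%), whereas those of Uck2 part at heterozygous replicate 1 (56.6% and 119%).

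**Figure D3:**
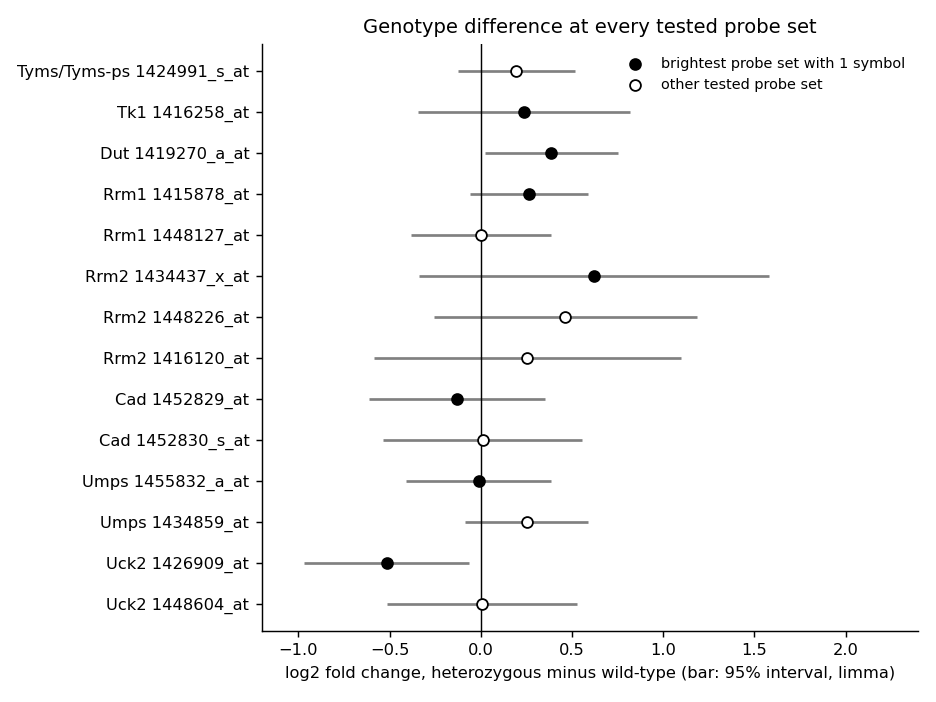
Log2 fold change, heterozygous minus wild-type, of the 14 tested probe sets with 95% intervals from limma (n = 3 arrays a group); filled points are the brightest probe set with 1 symbol of a gene. The intervals of Dut (0.02 to 0.75) and the brighter Uck2 probe set (-0.97 to -0.07) leave out 0, and all others include it.

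The intervals show how large a difference these arrays leave possible. For Rrm2 the interval reached 1.58 on the log2 scale and for Tk1 0.82, so that a change of that size could have gone uncalled. For Umps the interval of the brightest probe set ran from -0.41 to 0.39. By brightest probe sets, 4 of the 7 genes were positive and 3 negative with a median log2 fold change of 0.24, where 51.6% of 8241 tested genes were positive and their median was 0.01. Leaving out wild-type replicate 1 gave a median of 0.36, leaving out replicate 2 gave 0.07, and leaving out replicate 3 gave 0.12. With wild-type replicate 1 left out, 7 of the 14 probe sets had a limma unadjusted p under 0.05, against 5.3% of all tested, and 0 passed adjusted. These were the probe sets of Tk1 and Dut, the brightest of Rrm1 and all 3 of Rrm2, higher in heterozygous arrays, and the brightest of Uck2, lower (-0.57). They are not independent, and the array left out was the highest for Tk1. Leaving out replicate 2 or 3 of the wild-type arrays, or heterozygous replicate 1, 0 of the 14 had an unadjusted p under 0.05, against 5.15%, 7.64% and 7.37% of all tested, and 0 passed adjusted in limma. Without heterozygous replicate 2 or 3 it was 1 of the 14 (5.44% and 3.27% of all tested).

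Mki67 was used to ask whether the supply genes followed proliferation from array to array. It read 1280.5, 814.3 and 1020.9 in wild-type replicates 1 to 3 and 1364, 1290.7 and 1529.9 in heterozygous replicates 1 to 3. Wild-type replicates 2 and 3 were the lowest arrays and the groups did not overlap, although wild-type replicate 1 came close to heterozygous replicate 2. The log2 fold change was 0.44 (SE 0.17, limma adjusted p = 0.808).

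Of the members, Rrm1 had the highest r with Mki67. Over the 6 arrays its brightest probe set gave Pearson r = 0.89 (exact permutation p = 0.0194) and Spearman rho = 0.89 (exact permutation p = 0.0333), both two-sided. Adjusted over 13575 tested probe sets these were 0.765 and 0.763, so neither passed, and 1.55% of all tested probe sets had an r at least as high. It was the 1 member relation, of 14 computed, with a positive r and an unadjusted p under 0.05, where 3.67% of all tested probe sets had that. The r was 0.96 without wild-type replicates 2 and 3, the arrays farthest from the median of Mki67. In the arrays left, Mki67 ran only from 1280.5 to 1529.9, so this value shows little by itself. It was 0.76 for deviations from the genotype means. The second probe set of Rrm1 gave r = 0.53 (exact permutation p = 0.264) and rho = 0.31 (exact permutation p = 0.564). Its r was 0.23 without the same 2 arrays and 0.78 for deviations, so the high value over the 4 arrays was seen at 1 of the 2 probe sets.

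Tk1 came next, with r = 0.76 (exact permutation p = 0.0792, adjusted 0.795) and rho = 0.60 (exact permutation p = 0.242, adjusted 0.870). The probe set shared by Tyms and Tyms-ps gave r = 0.75 (exact permutation p = 0.0861, adjusted 0.795) and rho = 0.49 (exact permutation p = 0.356, adjusted 0.889). Dut gave r = 0.65 (exact permutation p = 0.160, adjusted 0.829) and rho = 0.71 (exact permutation p = 0.136, adjusted 0.802). Rrm2 gave r = 0.54 (exact permutation p = 0.276, adjusted 0.860) and rho = 0.26 (exact permutation p = 0.658, adjusted 0.929) at its brightest probe set. Without wild-type replicates 2 and 3, r was -0.23 for Tk1, -0.29 for the shared Tyms probe set, -0.31 for Dut and -0.08 for Rrm2. In the arrays left, Mki67 ran only from 1280.5 to 1529.9. Over so narrow a range these values cannot show what the relation over all arrays rested on. The same limit holds for the high r of Rrm1 in these arrays. With Top2a in place of Mki67, r over all arrays was 0.90 for Tk1, 0.79 for Dut and 0.74 for Rrm2. It was 0.89 for Rrm1, 0.27 for Cad, -0.02 for Umps and -0.54 for Uck2. These r with Top2a were not tested. Leaving out each array in turn, r with Mki67 ran from 0.68 to 0.93 for Tk1. It ran from 0.63 to 0.74 for Dut and from 0.45 to 0.77 for Rrm2. Each of these runs kept wild-type replicate 2 or 3, the arrays lowest in Mki67. They therefore cannot show whether the relation rested on that pair. The other probe sets of Rrm2 gave r = 0.55 (exact permutation p = 0.275; rho 0.49, p = 0.356) and r = 0.50 (exact permutation p = 0.310; rho 0.54, p = 0.297).

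Cad, Umps and Uck2 gave lower or negative r at their brightest probe sets. Cad gave r = 0.18 (exact permutation p = 0.743) and rho = -0.14 (exact permutation p = 0.803). Umps gave r = 0.24 and rho = 0.26 (exact permutation p = 0.660 and 0.658). Uck2 gave r = -0.56 (exact permutation p = 0.250) and rho = -0.83 (exact permutation p = 0.0583) at the brightest probe set, and r = 0.46 (exact permutation p = 0.364) and rho = 0.14 (exact permutation p = 0.803) at the other. The adjusted p over all tested probe sets was 0.971 for the r of Cad, 0.957 for that of Umps, and 0.859 for that of Uck2. The second probe set of Cad gave r = 0.39 (exact permutation p = 0.438; rho -0.03, p = 1) and that of Umps r = 0.21 (exact permutation p = 0.674; rho 0.49, p = 0.356). Without wild-type replicates 2 and 3, r was -0.52 for Cad, 0.94 for Umps and 0.03 for Uck2 at the brightest probe sets, over 4 arrays. At the second probe sets it was -0.50 for Cad, 0.26 for Umps and 0.35 for Uck2. The narrow range of Mki67 in these arrays limits all of these values. Whether the genes of UMP synthesis and those of deoxynucleotide supply differ in this was not tested.

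**Figure D4:**
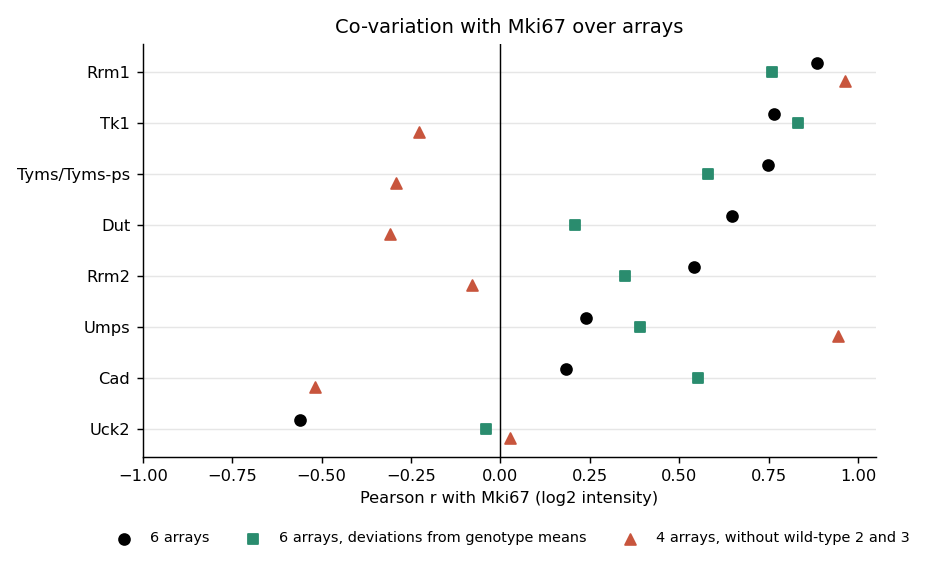
Pearson r between the log2 intensity of Mki67 and of each gene: circles use all 6 arrays, squares the deviations from the genotype means, and triangles the 4 arrays left without wild-type replicates 2 and 3. The brightest Rrm1 probe set, the one plotted, is at 0.76 or above under all 3 (the second has 0.23 in the 4 arrays). Tk1, the shared Tyms probe set, Dut and Rrm2 are below 0 in the 4 arrays. Mki67 ran only from 1280.5 to 1529.9 in those 4 arrays, a narrow range that limits every triangle.

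Genotype and Mki67 were not separate over these arrays, since Mki67 was itself higher in all heterozygous arrays. Within genotypes, the deviations gave r = 0.83 for Tk1, 0.58 for the shared Tyms probe set and 0.21 for Dut, given as a description. At the brightest probe sets they gave 0.55 for Cad, 0.39 for Umps, 0.35 for Rrm2 and -0.04 for Uck2. Other tested probe sets gave 0.57 for Cad, -0.63 for Umps, 0.35 and 0.50 for Rrm2, and 0.68 for Uck2. The probe sets of Umps and of Uck2 thus did not agree. The median r of all tested probe sets was 0.02 with Mki67 and 0.02 for deviations. These relations of deviations were not tested.

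The replication list, genes of origin licensing, polymerases and replication factors, had 32 tested genes. Their median r with Mki67 was 0.78, with 31 of 32 positive, and for deviations from the genotype means it was 0.78. For 29 mitosis genes without Mki67 the median r was 0.70, with 27 positive. The median was 0.54 over the 7 supply genes, 0.27 over 34 other nucleotide genes and 0.04 over 8240 tested genes. These medians describe lists of unequal size on the same 6 arrays and share their scaling.

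The list levels were set side by side for each array. The mean log2 deviation of the 7 genes was 0.24, -0.17 and -0.26 in wild-type replicates 1 to 3 and -0.16, 0.15 and 0.19 in heterozygous replicates 1 to 3. The replication list stood at 0.16, -0.25 and -0.16 in wild-type and -0.01, 0.07 and 0.19 in heterozygous replicates. The mitosis list stood at 0.30, -0.38 and -0.25 in wild-type and 0.14, 0.08 and 0.10 in heterozygous replicates. Heterozygous replicate 1 was thus below the 6-array mean for the supply list and above it for mitosis. The supply genes did not share this. In that array the brightest probe sets of Uck2, Cad, Rrm2 and Umps read 56.6%, 72.5%, 74.5% and 92.9% of their 6-array means. Those of Tk1, Dut and Rrm1 read 105%, 107% and 108%, and the second of Uck2 119%. Wild-type replicate 1 was above every heterozygous array for supply and mitosis, and the groups overlapped in all 3 lists.

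**Figure D5:**
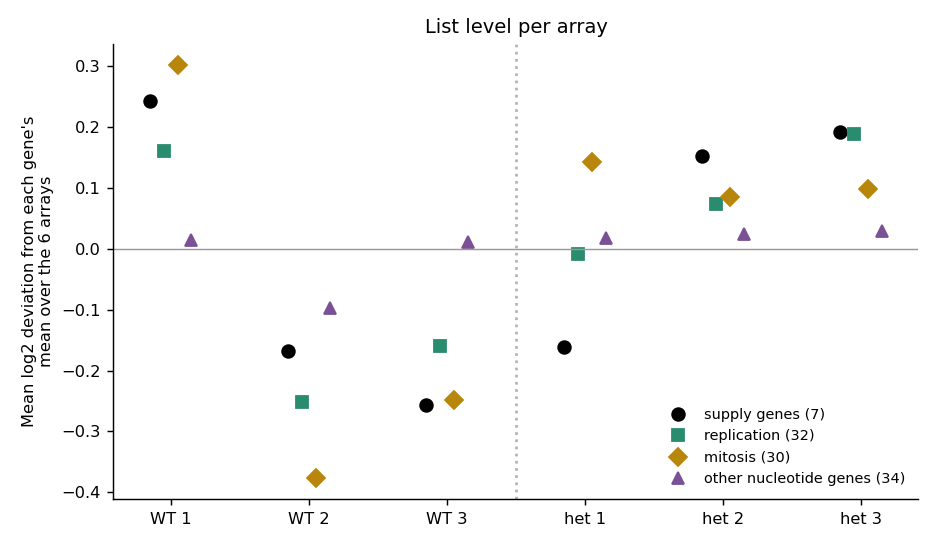
Mean log2 deviation of each list from its genes' means over the 6 arrays, for the 7 supply genes, 32 replication genes, 30 mitosis genes and 34 other nucleotide genes (WT wild-type, het heterozygous). Wild-type replicates 2 and 3 lie below 0 for supply, replication and mitosis genes, wild-type replicate 1 is above 0, and the other nucleotide genes stay between -0.10 and 0.03.

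The tissue makeup of the arrays was read from marker lists beside these levels. The summed intensity of 9 smooth muscle genes ran from 43944 to 59945 in wild-type and from 43280.3 to 53231.3 in heterozygous arrays, highest in wild-type replicate 3, where Rrm2 was lowest. The summed intensity of 16 colonocyte genes ran from 138252 to 152783 and from 136733 to 152185, lowest in wild-type replicate 3 and heterozygous replicate 1. The summed intensity of 8 ileal genes ran from 10153 to 32454.6 and from 11980.1 to 26459.3, also lowest in these 2 arrays. Crypt stem cell genes, 8 of them, summed to 2701.5 to 3505.4 and 2874 to 3141.1, highest in wild-type replicate 3. T cell genes were summed only where their mean over all arrays passed the filter, which favours genes high in some arrays. The genes so chosen were high in 2 of the heterozygous arrays. Levels of the T cell genes left out were not compared. The 4 of 11 T cell genes that passed the filter summed to 383.4 to 526.8 in wild-type arrays and to 397.2, 2018.3 and 3014.3 in heterozygous replicates 1 to 3. The 12 tested macrophage and dendritic cell genes summed to 6535.8 to 7512.3 and 7280.1 to 9881.1. The 5 tested B and plasma cell genes summed to 8301.1 to 10515.6 in wild-type and 9153.8 to 9479.4 in heterozygous arrays, inside the wild-type range. The 7 tested goblet cell genes summed to 68316, 68241.7 and 78832.5 in wild-type replicates 1 to 3 and to 65269.5 to 66854.5 in heterozygous arrays. These sums did not overlap. Taken singly, 2 of the 7 genes did not overlap, where 10.7% of all tested genes did not. Rrm2 was high in wild-type replicate 1 as well as in the 2 heterozygous arrays with high T cell sums. The part of tissue makeup in these levels was not tested.

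The other genes of pyrimidine and deoxynucleotide metabolism were measured as a list, of which 34 genes passed the filter among 38 with a probe set. None passed the threshold, 19 were positive and 15 negative, and the median log2 fold change was 0.03. Among those higher in heterozygous colon, Dguok, the mitochondrial deoxyguanosine kinase, had the smallest p. It read 305.3, 240.1 and 262.6 in wild-type and 362.2, 311.7 and 363.1 in heterozygous replicates, with no overlap (log2 fold change 0.35, SE 0.14, limma adjusted p = 0.822). Samhd1, a dNTP hydrolase, read 566 ± 19.6 and 721 ± 196 (SD, n = 3 each), with heterozygous replicate 3 at 946.4. The groups did not overlap there (log2 fold change 0.31, SE 0.18, limma adjusted p = 0.911), while other tested probe sets gave -1.003 and 0.17. Dhodh, the mitochondrial step of UMP synthesis, had 0.30 at the brightest and -0.04 at another probe set.

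Lower in heterozygous colon were Ctps, CTP synthase, at 329 ± 69.0 and 268 ± 23.0 (SD, n = 3 each; log2 fold change -0.26), Cmpk1, UMP-CMP kinase (-0.18), and Upb1, a pyrimidine breakdown enzyme (-0.25). All overlapped, with limma adjusted p from 0.916 to 0.928.

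No replication gene passed the threshold. Of 32 tested, 30 were positive and 2 negative, where 51.6% of all tested genes were positive. The median log2 fold change was 0.20, with 0 past the threshold. An unadjusted p under 0.05 in limma was found for 1, against 5.4% of genes. These genes too moved together over the arrays (median r with Mki67 0.78), so the counts are not of independent genes. Rpa1, a single-stranded DNA binding protein, read 1341 ± 105 and 1603 ± 65.7 (SD, n = 3 each; log2 fold change 0.26, limma adjusted p = 0.859). Orc6, of the origin recognition complex, had 0.34 and Pole2, a subunit of polymerase epsilon, 0.30. Ccne2, cyclin E2 (-0.18), and Prim2, a primase subunit (-0.13), were the 2 negative genes.

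Of 30 tested mitosis genes, a list that includes Mki67, 27 were positive, against 51.6% of all tested genes, with a median of 0.19 and 0 past the threshold in limma. An unadjusted p under 0.05 in limma was found for 7 of them, Mki67 among these, against 5.4% of all tested genes. The genes of this list moved together over the arrays (median r with Mki67 0.70), so the counts are not of independent genes. Their mean level was highest in wild-type replicate 1 (0.30) and lowest in wild-type replicates 2 and 3 (-0.38 and -0.25). Bub1, a spindle checkpoint kinase, had a log2 fold change of 0.97 (adjusted p = 0.701) and overlapped, Prc1, a spindle midzone protein, 0.38. Foxm1, a transcription factor of the cell cycle, had -0.36, Racgap1 -0.04 and Tpx2 -0.02. Another probe set of Prc1 gave -0.07 and another of Racgap1 0.28.

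The genes whose pattern over the 6 arrays was most like the mean of the 7 supply genes were Mrps25 (r = 0.99), Eng (0.99), Ppdpf (0.99), Noc4l (0.99) and Asf1b (0.98). This ranks 8234 tested genes by 1 profile of 6 values, and 93 of them, 1.13%, had an r of at least 0.9. Asf1b, the lowest of the 5, is a histone chaperone of replicating chromatin, and none of the 5 is on the replication or mitosis list. None of the 5 passed the threshold between genotypes, with limma adjusted p from 0.960 to 0.972.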

How the data were processed

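Total RNA from 6 proximal colons was amplified, labelled with biotin and hybridised to 1 array per mouse, per the labels' protocols. The deposited table holds an intensity on a linear scale for each probe set on each array and no detection column. The submitters' processing notes name GCOS, with neither version nor settings in the sources used here. From the values, each array's mean without the top and bottom 2% of probe sets was 500, so total RNA per cell cannot be compared. Of 22626 probe sets left without controls, 20380 had 1 gene symbol in the platform annotation, 691 several and 1555 none.

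Values entered as log2(signal + 16), which understates the change of dim genes. The filter kept 13576 probe sets, those whose mean over arrays reached the 40th percentile. Genotypes were compared with limma 3.58.1 (lmFit, eBayes with trend) in R 4.3.3, two-sided, with Benjamini-Hochberg adjustment over all tested probe sets and a threshold of 0.05. Each gene is given by the brightest of its probe sets that carry 1 symbol. Correlations with Mki67 used log2 values and exact permutation over the 720 orders of 6 arrays, adjusted over all tested probe sets. The number of arrays, 3 a group, limits the precision. The limma p-values set each difference against the spread between animals, an estimate that borrows from all tested probe sets.

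Genes named are all members, Mki67, Mthfd1, the 3 genes with the smallest p in each direction of the other lists, and the 5 genes nearest to the mean member profile. Car1 and Fabp6, from the marker lists, are named outside this rule and were chosen after their values were seen. Members and lists were chosen with earlier results of these data known. The steps were tested on simulated data. Alternatives changed the filter, the pseudocount, the normalization, the variance model or array weights, added a replicate block, averaged probe sets, took Top2a for Mki67, or left out 1 array. Deviations from the genotype means had correlations of -0.12, 0.49 and 0.04 between arrays of equal replicate number. Between arrays of unequal number they ran from -0.47 to 0.42. With 3 arrays a group this check cannot decide whether the numbers in the titles pair the arrays, and the main comparison used no pairing.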

Additional observations from a re-analysis of the deposited data

How the results depend on the processing

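No member probe set passed the threshold under any alternative run (limma), and the median log2 fold change of the tested member genes lay between 0.13 and 0.25 under the 10 alternatives other than leaving out an array. Leaving out each array moved that median between 0.07 and 0.36 and the count of member probe sets past the threshold between 0 and 0. Over the whole array, 8 probe sets passed with robust variance, 4 with array weights, and 0 to 39 with an array left out. Log2 fold changes near 0 turned sign for Umps (0.037 with array weights, 0.12 with the mean of all probe sets), for the second Rrm1 probe set (-0.0030 with array weights) and for the second Cad probe set (-0.0011 with a pseudocount of 64). Leaving out an array took Cad from -0.30 to 0.039, Umps from -0.14 to 0.16, the second Rrm1 probe set from -0.10 to 0.14, the dimmest tested Rrm2 probe set from -0.20 to 0.70, the second Cad probe set from -0.26 to 0.22 and the second Uck2 probe set from -0.21 to 0.19. The median r of the members with Mki67 was 0.74 with Top2a in its place, 0.39 for deviations from genotype means, -0.0798 without the 2 arrays farthest from the Mki67 median, and 0.45 to 0.68 with 1 array left out. Without those 2 arrays r was -0.23 for Tk1, -0.31 for Dut, -0.0798 for Rrm2, -0.52 for Cad and 0.028 for Uck2, and with Top2a it was -0.024 for Umps. With 1 array left out, r ran from -0.31 to 0.52 for Cad and from -0.42 to 0.81 for Umps. The cause of these changes was not tested. With the replicate number as a block, the median log2 fold change was 0.24 and 0 of 14 member probe sets passed, so it changed no call. Values come without a signal over background, so no detection limit could be set for the dim probe sets.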
